A study of Rattus norvegicus with 28 samples.

Results

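The 4 arrays described here compared RNA of rat hepatocytes treated with 2 nM PeCDF against RNA of hepatocytes of the same rat that had received the solvent DMSO. They were taken by their label from 28 arrays of the series, which held 7 test groups of 4 arrays each: PeCDF at 0.02 and 2 nM, TCDF at 0.1 and 10 nM, TCDD at 0.01 and 1 nM, and untreated cells. PeCDF is 2,3,4,7,8-PeCDF, a pentachlorinated dibenzofuran. TCDF and TCDD are the tetrachlorinated furan and dioxin of the same study. In every group, primary hepatocytes had been isolated from adult female rats of the Sprague-Dawley strain (2 animals, named A and B) and had grown on Matrigel for 48 h in medium with insulin, transferrin, selenium and 0.1 uM dexamethasone. Treatment then lasted 24 h in 0.1% DMSO, which the control dishes received alone and the untreated cells did not. The 3 dishes of a treatment and rat were pooled into 1 RNA, so each group holds n = 2 rats, and the culture lacks the blood flow and the cell layout of a liver. Each rat gave 2 arrays of opposite dye orientation, one with the PeCDF RNA in red and one with it in green, and both are 1 replicate. The labels leave unsaid if the DMSO RNA of a rat came from 1 preparation for all its arrays. All values are log2 ratios of PeCDF RNA over DMSO RNA. The mean of the 2 rats is given with its standard error (SE) and was tested against 0, which leaves out the spread between DMSO cultures themselves.

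PeCDF binds the aryl hydrocarbon receptor (AHR), a transcription factor that waits in the cytoplasm in a complex with the chaperone HSP90. With a ligand bound, AHR enters the nucleus, pairs with ARNT and binds short DNA elements with the core GCGTG. In liver its classical targets are cytochromes of family 1 and enzymes that conjugate or reduce foreign compounds, together called the AHR battery, and dioxin-like ligands are also known for lowered glucose output and altered lipid metabolism in rats.

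At an adjusted p under 0.05 in limma, 1549 of 34798 genes tested were called, 4.45% of them: 607 were higher with PeCDF 2 nM (1.74%) and 942 were lower (2.71%). Most changes were small. The median absolute log2 ratio was 0.28 over the called genes and 0.05 over all genes tested, and 11 called genes were more than 2-fold higher and 10 more than 2-fold lower. Of the called genes, 777 carry a gene symbol, 351 higher and 426 lower, and the other 772 are counted and not named. All 4 arrays had the same sign in 1521 of the 1549, an agreement that the call itself favours. Genes without a value on all 4 arrays were not counted among them, and 19 called genes lacked 1 rat. Over all genes the log2 ratios of the 2 dye orientations correlated at 0.61 in rat A and at 0.67 in rat B, against 0.29 to 0.56 between arrays of different rats. Without rat A 138 genes were called and without rat B 661, with the spread then taken from the other groups. When the fit held the PeCDF 2 nM arrays alone, with no spread shared from other groups, 3 genes were called.

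**Figure D1:**
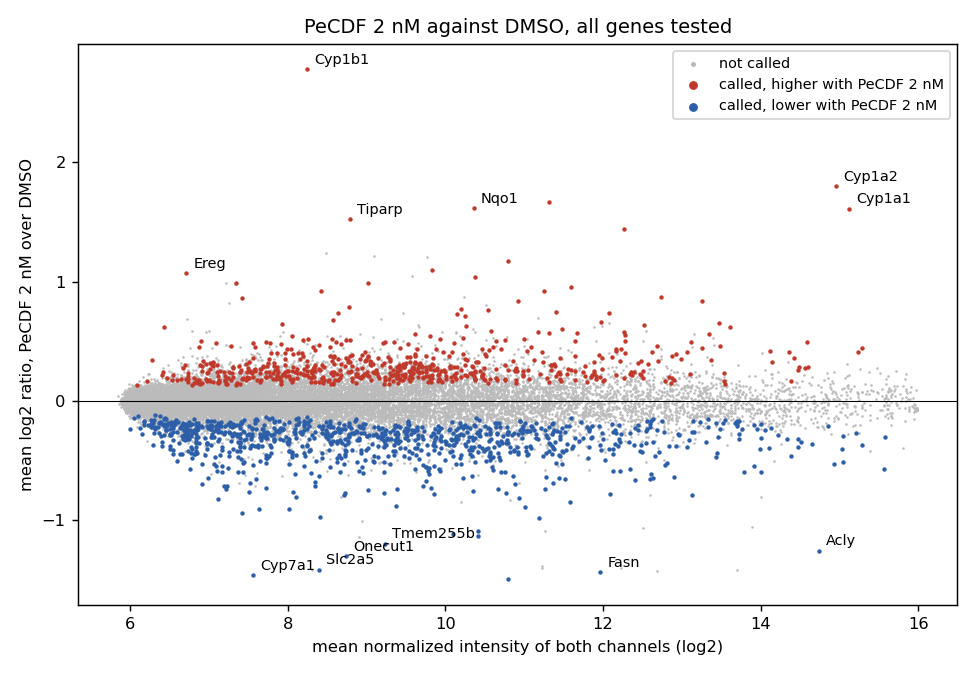
Mean log2 ratio of PeCDF 2 nM over DMSO (vertical axis) against the mean normalized log2 intensity of both channels (horizontal axis), 1 point per gene tested; called genes are in red (higher) and blue (lower). The 607 higher and 942 lower genes span the whole range of brightness, most lie between -1 and 1, and Cyp1b1 stands highest at 2.78.

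Most genes of the AHR battery rose. This list and those below were chosen with earlier results of these data known, so their counts describe and do not test a pathway. The shares over all genes tested to set beside each list are 1.74% higher and 2.71% lower. Of the battery's 12 measured genes, 8 were called higher and 0 lower, and the list's median log2 ratio was 1.15, against a median of 0.00 over all genes tested. Cyp1b1, a cytochrome that oxidizes steroids and polycyclic hydrocarbons, had log2 ratios of 3.18 and 3.00 in rat A and 2.47 and 2.47 in rat B, where here and below the array with the PeCDF RNA in red comes first for each rat. Its mean was 2.78 ± 0.15, adjusted p = 6.69e-05, or 6.86-fold higher than in DMSO cells, although another probe of the gene gave 0.56. Cyp1a2, which oxidizes aromatic amines, had 1.71 and 1.87 in rat A and 1.75 and 1.87 in rat B and a mean of 1.80 ± 0.12, adjusted p = 0.000109. Its PeCDF channel was saturated on 3 of 4 arrays, so this mean is a lower bound, and another, unsaturated probe gave 2.20, or 4.58-fold. Cyp1a1, the most widely used marker of AHR activity, was saturated in the PeCDF channel of all 4 arrays and in no DMSO channel, so its log2 ratios of 2.26 and 1.49 in rat A and 1.66 and 1.04 in rat B are lower bounds. Its mean signal was 15.93 log2 units with PeCDF and 14.31 with DMSO, so it was at least 3.06-fold higher (adjusted p = 0.000306).

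Other called genes of the battery included conjugating and reducing enzymes. Nqo1, a quinone reductase, had 1.66 and 1.43 in rat A and 1.77 and 1.61 in rat B, all 4 close together, with a mean of 1.61 ± 0.18, adjusted p = 0.00189, or 3.06-fold. Tiparp, a poly(ADP-ribose) polymerase that restrains AHR in mice, had 1.76 and 1.97 in rat A and 1.08 and 1.28 in rat B (1.53 ± 0.25, adjusted p = 0.0091), so both arrays of rat A lay above both of rat B. Ugt1a6, a glucuronosyltransferase whose gene shares exons with its neighbours in the Ugt1a cluster, had 1.27 and 1.06 in rat A and 1.13 and 0.94 in rat B (1.10 ± 0.18, adjusted p = 0.00884). Nfe2l2, the antioxidant regulator NRF2, had 0.49 and 0.76 in rat A and 0.52 and 0.71 in rat B (0.62 ± 0.09, adjusted p = 0.00715). Ugdh, which makes the glucuronic acid donor used by Ugt1a6, had 0.37 and 0.42 in rat A and 0.44 and 0.52 in rat B (0.44 ± 0.09, adjusted p = 0.029). The smallest called change of the battery was thus that of Ugdh, at 1.36-fold.

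The other 4 battery genes did not pass the test. Aldh3a1, an aldehyde dehydrogenase, split by rat: its log2 ratios were 0.49 and 0.19 in rat A and 2.11 and 2.03 in rat B, with a mean of 1.20 ± 0.36, adjusted p = 0.103. With the animal as a replicate block its adjusted p was 0.0486. Gsta2, a glutathione transferase with near-identical copies in the rat genome, split in the same way, with -0.26 and -0.05 in rat A and 0.87 and 0.93 in rat B (0.37 ± 0.23, adjusted p = 0.482), and another probe gave 0.60. The amino acid transporter gene Slc7a5 had a mean of 0.08 ± 0.06 and the cytochrome Cyp2s1 one of -0.05 ± 0.04. Without rat A 4 of the 12 genes were called higher, namely Cyp1a1, Cyp1a2, Cyp1b1 and Nqo1, and without rat B 5, with Tiparp added. Ugt1a6, Nfe2l2 and Ugdh lost their call when either rat was left out.

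The promoters of 4 of these induced genes are shown because each holds the core that AHR and ARNT bind. The windows run from 250 bases before to 50 bases after the gene's start, are taken from RefSeq on the GRCr8 build and are written along the gene's strand, with each GCGTG, or CACGC for the same core on the other strand, in capitals. Cyp1b1 lies at chr6:21094315-21094614 on the plus strand and has 2 cores, starting 81 and 20 bases before the gene's start. Nqo1 at chr19:52220218-52220517 on the minus strand has 1 core 10 bases before the start. Tiparp at chr2:152063519-152063818 and Ugt1a6 at chr9:96194768-96195067, both on the plus strand, have 1 each, 136 and 133 bases before the start.
Cyp1b1: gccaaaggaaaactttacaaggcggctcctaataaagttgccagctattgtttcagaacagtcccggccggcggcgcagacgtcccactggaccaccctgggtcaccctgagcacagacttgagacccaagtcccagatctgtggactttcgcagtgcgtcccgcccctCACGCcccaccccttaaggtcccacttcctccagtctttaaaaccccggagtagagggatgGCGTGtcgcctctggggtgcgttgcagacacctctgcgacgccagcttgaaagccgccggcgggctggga
Nqo1: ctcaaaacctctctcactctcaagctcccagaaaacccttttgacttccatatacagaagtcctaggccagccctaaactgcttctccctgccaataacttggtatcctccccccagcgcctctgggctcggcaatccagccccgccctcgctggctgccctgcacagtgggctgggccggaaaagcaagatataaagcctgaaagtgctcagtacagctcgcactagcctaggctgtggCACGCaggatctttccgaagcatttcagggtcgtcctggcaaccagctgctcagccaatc
Tiparp: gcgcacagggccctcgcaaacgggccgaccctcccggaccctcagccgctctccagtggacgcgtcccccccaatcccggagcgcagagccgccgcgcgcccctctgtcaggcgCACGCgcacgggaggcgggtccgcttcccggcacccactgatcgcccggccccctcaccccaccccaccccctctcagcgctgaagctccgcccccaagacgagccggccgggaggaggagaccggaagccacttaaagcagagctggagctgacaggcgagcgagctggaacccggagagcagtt
Ugt1a6: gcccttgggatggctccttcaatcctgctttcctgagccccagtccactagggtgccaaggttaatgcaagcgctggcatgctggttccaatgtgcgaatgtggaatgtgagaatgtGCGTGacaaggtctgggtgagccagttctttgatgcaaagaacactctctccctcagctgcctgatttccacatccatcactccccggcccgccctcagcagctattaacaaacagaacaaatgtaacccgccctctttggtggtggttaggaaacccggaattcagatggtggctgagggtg

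Of the 8 battery genes called higher, 7 have a window in the RefSeq table and 5 of these hold the core, the fifth being Ugdh; the windows of Cyp1a2 and Nfe2l2 do not hold these letters. The core is common. It occurs in 31.1% of all 27457 windows and in 41.7% of the 12106 windows of genes tested with a symbol. Among genes called higher with PeCDF 2 nM it was in 149 of 280 windows (53.2%), and among genes called lower in 163 of 349 (46.7%). Of the 25 largest increases, 19 have a window and 11 hold the core, and of the 25 largest decreases, 17 have one and 6 hold it. A match is a stretch of letters and does not show that AHR was bound there.

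The receptor and its partners did not pass the test. None of the 10 measured genes of the AHR complex was called, and their log2 ratios spanned -0.19 to 0.40 with a median of 0.02. Ahr itself had 0.11 and 0.06 in rat A and -0.07 and 0.00 in rat B, and its mean was 0.02 ± 0.05. Arnt, the DNA-binding partner, had a mean of 0.09 ± 0.04. Hsp90aa1, the inducible HSP90, differed by rat, with 0.30 and 0.16 in rat A and -0.58 and -0.62 in rat B, and 3 other probes gave 0.17 to 0.29. Hsp90ab1, the constitutive HSP90, had a mean of 0.16 ± 0.08 with its brightest probe, but another probe gave -0.51, outside the span of the brightest probes. When every probe was tested on its own, 1 probe of the complex was called lower. Ptges3, the HSP90 cochaperone p23, had 0.70 and 0.74 in rat A and 0.04 and 0.12 in rat B (0.40 ± 0.15, adjusted p = 0.189).

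Outside the battery, ligands of the EGF receptor were among the largest increases. Of 11 measured ligands, receptors and inhibitors of this family, 3 were called higher and 0 lower, with a list median of 0.01. Ereg, epiregulin, had 1.58 and 1.46 in rat A and 0.65 and 0.59 in rat B (1.07 ± 0.18, adjusted p = 0.00976; 2.07 with Agilent's own log ratios), and Areg, amphiregulin, had 1.62 and 1.46 in rat A and 0.37 and 0.51 in rat B (0.99 ± 0.23, adjusted p = 0.0373). In both genes the 2 arrays of rat A lay far above the 2 of rat B, and all 4 were above 0. Nrg1, neuregulin, which signals through ERBB3 and ERBB4, had 0.56 and 0.60 in rat A and 0.43 and 0.51 in rat B (0.52 ± 0.10, adjusted p = 0.0211), and another probe gave 0.61. The receptor Egfr had a mean of -0.12 ± 0.05. Without rat A 0 of the 3 were called and without rat B 2.

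Several increases were tight across the 4 arrays. Lect2, a secreted protein of hepatocytes, had 0.86 and 0.86 in rat A and 0.80 and 0.83 in rat B, a mean of 0.84 ± 0.05, adjusted p = 6.69e-05, or 1.78-fold. Ddit4l, an inhibitor of mTOR signalling, had 0.82 and 0.76 in rat A and 0.80 and 0.77 in rat B (0.79 ± 0.05, adjusted p = 7.94e-05). Defb1, a beta-defensin of epithelia, had 0.88 and 1.02 in rat A and 0.74 and 0.84 in rat B (0.87 ± 0.07, adjusted p = 0.000306), and Selenbp1, a selenium-binding protein, had 0.84 and 0.71 in rat A and 1.12 and 1.03 in rat B (0.92 ± 0.09, adjusted p = 0.000723). In these 4 genes the lowest single array was 0.71. Cyp2a1, a testosterone hydroxylase of rat liver, had 0.93 and 0.94 in rat A and 0.96 and 0.98 in rat B, but the spread shared from the other groups gave it a wider error (0.95 ± 0.21, adjusted p = 0.0306). Glrx, a glutaredoxin that reduces protein disulfides, had a mean of 0.75 ± 0.08, and Pkdcc, a secreted protein kinase, one of 0.93 ± 0.11. In 2 further genes the rats stood apart. Ceacam4, an adhesion molecule of the carcinoembryonic antigen family, had 0.72 and 0.47 in rat A and 1.12 and 1.13 in rat B (0.86 ± 0.14), and another probe gave 0.99. Ehf, an epithelial ETS transcription factor, had 0.40 and 0.52 in rat A and 0.78 and 0.89 in rat B (0.65 ± 0.13).

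Growth and stress response genes were mixed. Plk2, a polo-like kinase on the p53 list, had 0.80 and 0.97 in rat A and 0.57 and 0.74 in rat B (0.77 ± 0.16, adjusted p = 0.0285), and it was the 1 called gene of 17 on that list. Of 22 immediate-early genes, 3 were called higher and 1 lower. Ier3, an early response gene that limits cell death, had 0.94 and 1.03 in rat A and 0.45 and 0.54 in rat B (0.74 ± 0.16, adjusted p = 0.0265), Klf4 had a mean of 0.39 ± 0.07 and the phosphatase gene Dusp5 one of 0.26 ± 0.05. Ccn2, connective tissue growth factor, went the other way, with -0.85 and -0.83 in rat A and -0.97 and -0.90 in rat B (-0.89 ± 0.14, adjusted p = 0.00829). Among 14 chemokine and NF-kB genes 1 was called: Cxcl1, a neutrophil chemokine, had 1.38 and 1.50 in rat A and 0.72 on the 1 array of rat B with a value, so its mean of 1.44 ± 0.31, adjusted p = 0.0332, rests on rat A. Map3k8, a kinase upstream of ERK and NF-kB, had 0.87 and 1.11 in rat A and 0.28 and 0.49 in rat B and did not pass (0.69 ± 0.20, adjusted p = 0.0941), but with the animal as a replicate block its adjusted p was 0.0184.

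The remaining large increases belong to varied classes. Tfrc, the transferrin receptor that brings iron into cells, had 0.74 and 0.83 in rat A and 0.44 and 0.63 in rat B (0.66 ± 0.09, adjusted p = 0.00471), and another probe gave 0.32. Rsad2, the antiviral protein viperin, had 0.95 and 0.97 in rat A and 0.49 and 0.49 in rat B (0.73 ± 0.15, adjusted p = 0.0214), while another probe gave 0.19. Ppm1g, a protein phosphatase of the splicing machinery, had 0.74 ± 0.13. Mettl7b, a methyltransferase of the endoplasmic reticulum, had 0.68 ± 0.08. Eif4g2, a translation initiation factor, had 0.91 and 0.96 in rat A and 0.29 and 0.46 in rat B (0.65 ± 0.10, adjusted p = 0.00824), with 4 other probes from -0.11 to 0.39. Cd14, a receptor for bacterial lipopolysaccharide, had 0.58 and 0.49 in rat A and 0.75 and 0.68 in rat B (0.63 ± 0.15, adjusted p = 0.0489).

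**Figure D2:**
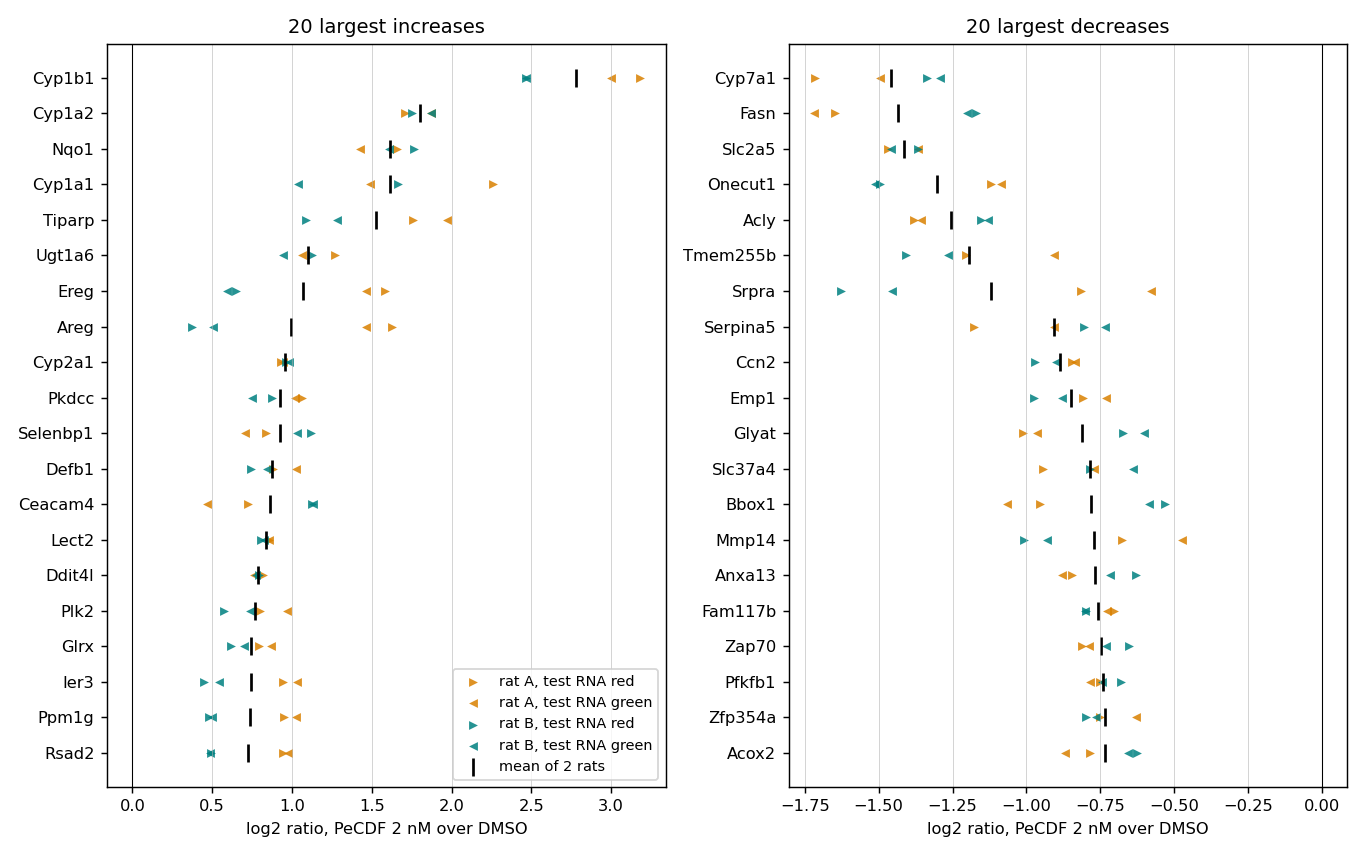
Log2 ratios of PeCDF 2 nM over DMSO on each of the 4 arrays for the 20 largest increases (left) and the 20 largest decreases (right) among the called genes that have a symbol and 1 sign throughout; colour gives the rat, the triangle's direction the dye orientation and the black bar the mean of 2 rats. Values of Cyp1a1 and Cyp1a2 are held down by saturation. Lect2, Ddit4l and Slc2a5 are tight, whereas in Ereg, Areg, Fasn and Srpra the 2 rats stand apart.

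The glucose metabolism list, chosen with earlier results of these data known, lay mostly below 0. Of 23 measured genes, 21 had a log2 ratio below 0. Called lower were 11 (47.8%) and called higher 0, with a median log2 ratio of -0.38 (-0.49 in rat A and -0.34 in rat B). Slc2a5, the fructose transporter GLUT5, had -1.47 and -1.37 in rat A and -1.37 and -1.46 in rat B, all 4 close together, with a mean of -1.42 ± 0.09, adjusted p = 7.94e-05, or 2.67-fold lower. The final step of glucose release takes 2 proteins. Slc37a4, which carries glucose-6-phosphate into the endoplasmic reticulum, had -0.95 and -0.77 in rat A and -0.79 and -0.64 in rat B (-0.78 ± 0.07, adjusted p = 0.000543), and another probe gave -0.79. G6pc1, the phosphatase that then frees glucose, had -0.85 and -0.94 in rat A and -0.47 and -0.60 in rat B (-0.71 ± 0.12, adjusted p = 0.0106), but another probe gave -0.08. In gluconeogenesis Fbp1, fructose bisphosphatase, had -0.60 ± 0.05 and Pc, pyruvate carboxylase, -0.38 ± 0.09.

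Called genes of glucose use and storage were lower as well. Pfkfb1, the liver enzyme that sets the level of the fructose bisphosphate that switches glycolysis on, had -0.75 and -0.79 in rat A and -0.68 and -0.74 in rat B (-0.74 ± 0.04, adjusted p = 7.94e-05). In glycogen storage, Gys2, glycogen synthase, had -0.72 and -0.64 in rat A and -0.60 and -0.60 in rat B (-0.64 ± 0.06, adjusted p = 0.000851), and Ppp1r3b, which directs a phosphatase to glycogen, had -0.32 ± 0.05, but another probe gave 0.02. Without rat A 8 of the 23 genes were called lower and without rat B 10. Pck1, the hormone-regulated gluconeogenic enzyme, did not pass, with -0.19 and 0.03 in rat A and -0.12 and -0.11 in rat B.

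Of 23 measured genes of fatty acid synthesis, 5 were called lower and 0 higher, with a median of -0.18. They follow the pathway. Acly, which makes cytosolic acetyl-CoA, had -1.38 and -1.36 in rat A and -1.15 and -1.13 in rat B (-1.26 ± 0.15, adjusted p = 0.00213). Acaca, acetyl-CoA carboxylase, had -0.65 and -0.74 in rat A and -0.60 and -0.64 in rat B (-0.66 ± 0.06, adjusted p = 0.000494), though another probe gave -0.11. Fasn, fatty acid synthase, had -1.65 and -1.72 in rat A and -1.17 and -1.20 in rat B (-1.43 ± 0.29, adjusted p = 0.0232), and another probe gave -1.29. Scd, which desaturates the product, had a mean of -0.37 ± 0.08. Srebf1, the transcription factor of the pathway, had one of -0.35 ± 0.07, and another probe gave -0.18. Scd and Srebf1 lost their call with Agilent's own log ratios. Without rat A 1 of these genes was called and without rat B 3, and with only unsaturated probes 3 of 21.

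On the list of fatty acid oxidation and the fasting response, 8 of 26 genes were called lower and 0 higher, with a median of -0.18. Bbox1, the last enzyme of carnitine synthesis, had -0.95 and -1.06 in rat A and -0.53 and -0.58 in rat B (-0.78 ± 0.19, adjusted p = 0.0472). Cpt2, which releases fatty acids from carnitine in mitochondria, had a mean of -0.25 ± 0.04, and the peroxisomal thiolase Acaa1a had -0.37 ± 0.08, with 2 other probes at -0.01 and 0.05. Bdh1, a dehydrogenase of ketone synthesis, had -0.32 ± 0.06. Angptl4, a secreted inhibitor of lipoprotein lipase, had -0.34 and -0.26 in rat A and -0.73 and -0.66 in rat B (-0.50 ± 0.09, adjusted p = 0.0119), with both arrays of rat B below both of rat A. The hepatokine Fgf21 had -0.35 ± 0.06 and the fatty acid binding protein Fabp1 -0.43 ± 0.10, with 2 other probes at -0.33 and -0.09. Fatty acid synthesis and oxidation thus both held genes called lower and none called higher. Without rat A 1 of the 26 genes was called and without rat B 3.

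Bile acid genes showed 3 calls of 24, all lower, with a median of -0.17. Cyp7a1, the rate-limiting enzyme of bile acid synthesis and the largest decrease among genes with a symbol, had -1.71 and -1.49 in rat A and -1.34 and -1.29 in rat B. Its 4 arrays were all at -1.29 or lower, but the gene's spread over all groups was wide and its call was close to the threshold (-1.46 ± 0.35, adjusted p = 0.0469). Abcb4, the phospholipid pump of the canalicular membrane, had -0.37 and -0.31 in rat A and -0.31 and -0.29 in rat B (-0.32 ± 0.04, adjusted p = 0.00464). Slc27a5, a bile acid CoA ligase, had -0.45 ± 0.11, adjusted p = 0.049, another probe gave -0.21, and with the animal as a replicate block its adjusted p was 0.0554. Acox2, a peroxisomal oxidase of the bile acid side chain that is not on the list, had -0.78 and -0.87 in rat A and -0.62 and -0.66 in rat B (-0.73 ± 0.15, adjusted p = 0.0218). Without rat A 0 of the 24 genes were called and without rat B 2.

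The sterol and heme lists held a few calls in both directions. Of 25 cholesterol genes, 2 were called higher and 2 lower. That is 8% each way, against 1.74% higher and 2.71% lower over all genes tested. The regulator Insig2 was among the higher, with 0.25 ± 0.05. Late enzymes were lower: Ebp had -0.90 and -0.73 in rat A and -0.41 and -0.24 in rat B (-0.57 ± 0.10, adjusted p = 0.0106) and Dhcr7 had -0.88 and -0.95 in rat A and -0.35 and -0.39 in rat B (-0.64 ± 0.16, adjusted p = 0.0478), both with rat A below rat B. Of 21 heme and iron genes, 2 were also called higher and 2 lower. Alas1, which starts heme synthesis, had a mean of -0.36 ± 0.06 and Alad, the next enzyme, one of -0.52 ± 0.08, whereas the iron importers Tfrc and Slc11a2 were higher, the second with 0.43 ± 0.08. Hamp, the iron hormone hepcidin, had -0.19 and -0.24 in rat A and -0.50 and -0.52 in rat B and did not pass (-0.36 ± 0.09, adjusted p = 0.0547), but with the animal as a replicate block its adjusted p was 0.00642. Without rat A 1 cholesterol gene was called higher and 0 lower, and without rat B 0 higher and 1 lower. Of the heme and iron genes 1 was called higher and 0 lower without rat A, and 1 higher and 3 lower without rat B.

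Cytochromes outside family 1 mostly did not pass, and those called were lower apart from Cyp2a1. Of 16 targets of the drug receptors CAR and PXR, 4 were called lower and 0 higher. Cyp2b3 had -0.68 and -0.70 in rat A and -0.48 and -0.50 in rat B (-0.59 ± 0.05, adjusted p = 0.000306), Cyp2b2 a mean of -0.33 ± 0.06 (3 other probes gave -0.26 to -0.09) and Cyp2c6v1 one of -0.35 ± 0.08. These cytochrome families have near-identical copies that a probe may not tell apart. The gene of PXR itself, Nr1i2, had -0.31 and -0.22 in rat A and -0.30 and -0.30 in rat B (-0.28 ± 0.05, adjusted p = 0.0118). Without rat A 1 of the 16 targets was called lower and without rat B 2. Of 26 constitutive cytochromes, Cyp2a1 was higher and 3 were lower: the steroid hydroxylase Cyp17a1 (-0.56 ± 0.08), the fatty acid hydroxylase Cyp4f4 (-0.42 ± 0.08) and Cyp4f1, whose value rests on rat A. Among 20 conjugating enzymes Ugt1a6 was higher, and the sulfotransferase Sult2a6 (-0.52 ± 0.09) and the glucuronosyltransferase Ugt2a1 (-0.26 ± 0.06) were lower. Glyat, which conjugates acyl groups with glycine, had -1.01 and -0.96 in rat A and -0.67 and -0.60 in rat B (-0.81 ± 0.11, adjusted p = 0.00416), and another probe gave -0.78. Of 17 glutathione transferases 1 was called, Gstm7 (-0.24 ± 0.05). Leaving out rat A gave 0 called genes in the constitutive cytochrome, conjugating enzyme and glutathione transferase lists, and leaving out rat B gave 1, 1 and 0.

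NRF2 targets did not move as 1 group, since 3 of 21 were called higher and 2 lower. Txnrd1, thioredoxin reductase, had 0.57 and 0.53 in rat A and 0.48 and 0.50 in rat B (0.52 ± 0.06, adjusted p = 0.00178), with other probes at 0.57 and 0.22. The growth inhibitor gene Osgin1 had 0.35 ± 0.07 and the cystine transporter Slc7a11 had 0.24 ± 0.04. The called decreases were enzymes of the pentose phosphate pathway: Tkt, transketolase, had -0.58 and -0.52 in rat A and -0.25 and -0.25 in rat B (-0.40 ± 0.07, adjusted p = 0.01) and Taldo1, transaldolase, -0.24 ± 0.05. Without rat A 0 of the 21 were called in either direction, and without rat B 1 was higher and 2 were lower.

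Of 23 liver transcription factors and nuclear receptors, 2 were called higher and 4 lower. Onecut1, HNF6, a factor of liver and bile duct development, had -1.12 and -1.09 in rat A and -1.50 and -1.51 in rat B, with a mean of -1.30 ± 0.16, adjusted p = 0.003, or 2.47-fold lower. Foxa1, a pioneer factor of liver genes, had -0.52 and -0.45 in rat A and -0.41 and -0.46 in rat B (-0.46 ± 0.05, adjusted p = 0.00112), and the zinc finger gene Zfp354a had -0.75 and -0.63 in rat A and -0.80 and -0.76 in rat B (-0.74 ± 0.09, adjusted p = 0.00323). Pou3f1, a POU factor best known from Schwann cells, had 0.56 and 0.75 in rat A and 0.43 and 0.73 in rat B (0.62 ± 0.08, adjusted p = 0.00265), and Foxa2 had 0.18 ± 0.04. Pou3f1 was dim, above background in the DMSO channel of 3 of 4 arrays, and with Agilent's own log ratios its mean was 1.48. Cited2, a coactivator-binding protein outside this list, had -0.66 ± 0.06, with 2 other probes at -0.32 and -0.22. Without rat A 2 of the list were called lower and 0 higher, and without rat B 3 lower and 1 higher.

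Secreted liver proteins held few calls. Of 18 apolipoprotein genes, Apoc2 (-0.46 ± 0.05) and Apoa5 (-0.16 ± 0.04) were called lower and 0 higher. In this list 6 genes were saturated on at least 1 of the 4 arrays, which limits what could be called. Of 23 coagulation genes 3 were called lower: Serpina5, the protein C inhibitor, had -1.18 and -0.91 in rat A and -0.80 and -0.74 in rat B (-0.91 ± 0.14, adjusted p = 0.00872), F11, coagulation factor XI, had -0.43 ± 0.09 and Klkb1, plasma kallikrein, had -0.39 ± 0.09. Of 25 acute phase genes, Lbp, the lipopolysaccharide-binding protein, had 0.28 ± 0.05 and the interleukin receptor Il1r1 0.24 ± 0.04, the 2 called, both higher, Il1r1 with 0.57 when Agilent's own log ratios were used. Of these 25 genes 13 were saturated on at least 1 array, and the list depended on the dye orientation: with the PeCDF RNA in red alone 2 were called higher and 12 lower, and with it in green alone 11 higher and 1 lower. In the IGF axis of 15 genes Igfbp1 was higher (0.41 ± 0.09, saturated on 1 array in each channel), and Igf1 (-0.27 ± 0.06; 3 other probes gave -0.18 to -0.01) and Stat5a (-0.26 ± 0.04) were lower. Tat, the aminotransferase that starts tyrosine breakdown, had 0.66 and 0.45 in rat A and 0.64 and 0.51 in rat B (0.57 ± 0.12, adjusted p = 0.0285) and was the 1 called increase among 24 amino acid and urea genes, where Gls2 (-0.34 ± 0.05), Cbs (-0.30 ± 0.05) and Nags (-0.23 ± 0.05) were lower, Nags with an adjusted p of 0.0507 when the animal was a replicate block. In these 5 lists 0 genes were called without rat A. Without rat B 2 apolipoprotein, 1 coagulation, 0 acute phase, 1 IGF axis and 2 amino acid genes were.

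The other lists held few calls. In the retinoid and cell cycle lists the share called lower was 4.17% each, near the 2.71% over all genes tested. Of 36 respiratory chain subunits, 5 were called lower and 0 higher, each by a small amount (-0.32 at the most), with a median of -0.13 (-0.19 in rat A and -0.06 in rat B). They were Ndufs7, Ndufv2 and Ndufb5 of complex I, Sdhb of complex II and Cox6a1 of complex IV, but other probes gave -0.01 for Ndufs7 and -0.05 for Ndufv2. Of the 36, 0 were called without rat A, without rat B 3 and with Agilent's own log ratios 0. Of 31 ABC transporters 4 were lower, among them Abcb4 and Abca8, of 24 retinoid genes 1 was lower, Dhrs3 (-0.37 ± 0.06), and of 24 cell cycle genes 1 was lower, Ccnd1, cyclin D1 (-0.34 ± 0.07). Of 18 genes of the unfolded protein response, Dnajc3 was higher (0.38 ± 0.07), and Hyou1 (-0.39 ± 0.07) and Hsp90b1 (-0.26 ± 0.05) were lower, although other probes gave -0.01 for Hyou1 and -0.02 for Hsp90b1. Of 16 clock genes, Per2 was higher (0.28 ± 0.06) and Bhlhe41 lower (-0.20 ± 0.04, with another probe at 0.03). When rat A was left out, 0 genes of the ABC transporter, retinoid, cell cycle, unfolded protein and clock lists were called, and without rat B 2, 2, 0, 1 and 0.

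**Figure D3:**
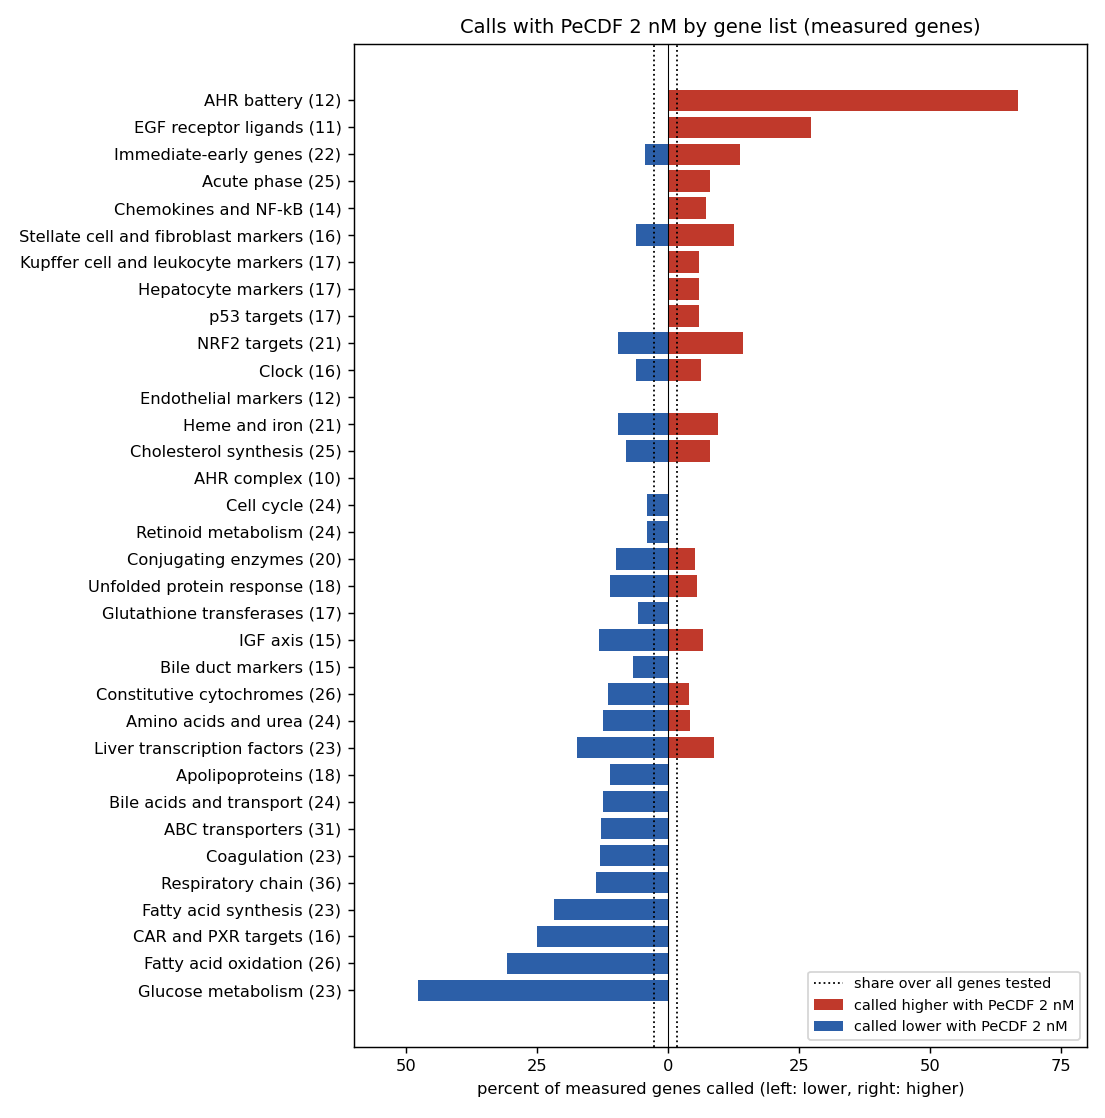
Percent of the measured genes of each list (number in brackets) called lower (blue, to the left) or higher (red, to the right) with PeCDF 2 nM; dotted lines give the shares over all genes tested, 2.71% lower and 1.74% higher. The AHR battery reaches 66.7% higher with none lower, glucose metabolism 47.8% lower with none higher, and most lists have few calls. The lists were chosen with earlier results of these data known.

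Decreases outside these lists included surface, matrix and signalling genes. Tmem255b, a membrane protein, had -1.20 and -0.91 in rat A and -1.41 and -1.26 in rat B (-1.19 ± 0.13, adjusted p = 0.00154). Emp1, an epithelial membrane protein, had -0.85 ± 0.09, but another probe gave -0.02. Zap70, a tyrosine kinase known from T cells, had -0.81 and -0.79 in rat A and -0.65 and -0.73 in rat B (-0.75 ± 0.07, adjusted p = 0.000928), all 4 arrays close together. Mmp14, a membrane-bound matrix metalloproteinase, had -0.68 and -0.47 in rat A and -1.01 and -0.93 in rat B (-0.77 ± 0.15, adjusted p = 0.019), and Fam13a had -0.48 and -0.53 in rat A and -0.93 and -0.85 in rat B (-0.70 ± 0.08, adjusted p = 0.00209; -1.16 with Agilent's own log ratios), both with rat B below rat A. Srpra, a subunit of the receptor for the signal recognition particle, had -0.82 and -0.58 in rat A and -1.63 and -1.46 in rat B (-1.12 ± 0.26, adjusted p = 0.0433), while another probe gave 0.17. Fam117b had -0.76 ± 0.12.

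Of the 25 largest increases, 11 were called without rat A and 19 without rat B, and of the 25 largest decreases 12 and 17. With Agilent's own log ratios 24 of the increases and 22 of the decreases were called, and with only the furan groups, whose scans were read in the same session per the file headers, 21 and 20. Cd14, Cyp7a1, Srpra and Bbox1 lost their call in each of these 4 settings.

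Markers of hepatocytes were bright in both channels. All 17 were well above background in all 8 channels of the 4 arrays, and their summed intensity was 640000 in rat A and 583000 in rat B with PeCDF, against 618000 and 633000 with DMSO. Of these 17 genes 9 were saturated on at least 1 array, so the sums are capped and do not show if hepatocyte RNA was equal in both. Tat was the 1 called hepatocyte marker, but with the PeCDF RNA in red alone 2 were called higher and 8 lower, and with it in green alone 8 higher and 0 lower. Markers listed for other cell types also gave signal: all 17 measured Kupffer cell and leukocyte markers, all 16 stellate cell and fibroblast markers, 14 of 15 bile duct markers and 10 of 12 endothelial markers were above background in every channel, and none was at background in all DMSO channels. Signal was common on the array, where 37824 of 41012 probes passed a looser filter. These counts alone therefore do not show RNA of those cell types. The sums of these markers were far lower, for example 15900 in rat A and 18900 in rat B with PeCDF against 15400 and 20900 with DMSO for Kupffer cell markers, and 5810 and 6610 against 6390 and 7910 for stellate cell markers. For bile duct markers the sums were 3230 and 3820 with PeCDF against 3660 and 3990 with DMSO, and for endothelial markers 2140 and 2120 against 2290 and 2350. Few of these genes passed the test. Cd14 was the called Kupffer cell marker, in a list where 11 of 17 lay below 0 (median -0.06). Among stellate cell markers the matrix genes Dcn (0.20 ± 0.05) and Col3a1 (0.17 ± 0.04) were called higher and Col1a1 (-0.15 ± 0.04) lower. The list as a whole went the other way from Dcn and Col3a1, with 13 of 16 markers below 0 and a median of -0.14. Of 12 endothelial markers 0 were called. Anxa13, an annexin listed as a bile duct marker, had -0.85 and -0.88 in rat A and -0.63 and -0.72 in rat B (-0.77 ± 0.08, adjusted p = 0.00091), and it was the 1 called of 15. Krt19, the defining bile duct keratin, had -0.08 ± 0.04. In such pooled RNA fewer cells of a type and less RNA per cell cannot be told apart, and the part of other cells in the changes of Cd14, Anxa13 or Ccn2 was not tested.

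Among the called genes the 2 rats went in the same direction and to different extents. Genes not called could differ in sign between the rats, as Gsta2 and Hsp90aa1 did. Values in both rats were available for 1530 of the 1549 called genes, and in all of these both rats had the same sign, a sharing that the test itself favours. The absolute log2 ratio was larger in rat A for 1024 genes and in rat B for 506, with medians of 0.31 and 0.25. Ereg averaged 1.52 in rat A and 0.62 in rat B, and Areg 1.54 and 0.44. The opposite order held for Aldh3a1, with 0.34 in rat A and 2.07 in rat B, and for Srpra, with -0.70 and -1.54. With 1 pooled RNA per rat and treatment, a difference between rats has no test.

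**Figure D4:**
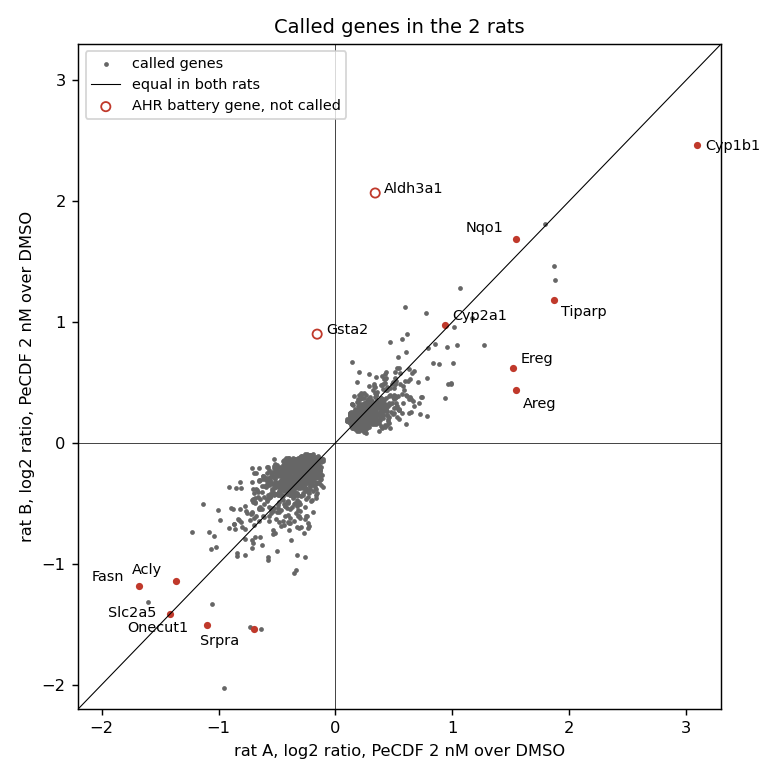
Log2 ratios of PeCDF 2 nM over DMSO in rat B (vertical axis) against rat A (horizontal axis) for called genes (grey; named ones in red), with the line of equal ratios; open circles are 2 AHR battery genes that were not called. Every called gene lies below 0 in both rats or above 0 in both; Ereg and Areg lie toward rat A, and Aldh3a1 and Gsta2, which did not pass, toward rat B.

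The lower dose of PeCDF, read in the same session, gave no calls. Against DMSO 0 genes were called with PeCDF 0.02 nM in limma. An unadjusted p under 0.05 in limma was found for 2653 genes (7.62%), against 17.4% of genes with PeCDF 2 nM. The difference of the doses, PeCDF 2 nM minus 0.02 nM, was called for 29 genes (0.0833% of those tested), 9 higher at 2 nM (0.0259%) and 20 lower (0.0575%), and for 52 with the animal as a replicate block. This split was not stable: with Agilent's own log ratios 7 were higher and 0 lower. Among the higher were Cyp1b1 (2.79 ± 0.21, adjusted p = 0.00162), Cyp1a2 (at least 1.51 ± 0.17, adjusted p = 0.0122; 1.85, adjusted p = 0.0324, with its unsaturated probe), Lect2 (0.93 ± 0.06, adjusted p = 0.00145), Defb1 (0.98 ± 0.10, adjusted p = 0.00833) and Selenbp1 (0.97 ± 0.12, adjusted p = 0.0191). At the lower dose these 5 genes had log2 ratios of -0.01, 0.29, -0.09, -0.10 and -0.04. Among the lower were Slc2a5 (-1.23 ± 0.13, adjusted p = 0.00833), Emp1 (-0.97 ± 0.12, adjusted p = 0.0182), Slc37a4 (-0.79 ± 0.10, adjusted p = 0.0182), Zap70 (-0.75 ± 0.11, adjusted p = 0.035) and Gys2 (-0.70 ± 0.09, adjusted p = 0.0191). Cyp1a1 had 0.70 at the lower dose, where it was saturated on 1 array, against all 4 at 2 nM, so its difference between the doses is not given. The log2 ratio was 0.66 at 2 nM and 0.49 at 0.02 nM for Tfrc, 0.74 and 0.50 for Ppm1g, and 0.73 and 0.52 for Rsad2, and the difference between the doses was called in none of these 3 genes. Without rat A 0 genes were called between the doses and without rat B 57, 54 higher and 3 lower, 9 of them among the 29.

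TCDF 10 nM and TCDD 1 nM are set beside PeCDF 2 nM at other doses, and all comparisons may share DMSO RNA of the same rat. The difference PeCDF 2 nM minus TCDF 10 nM had an unadjusted p under 0.05 in limma for 991 genes (2.85%). It was called for 0 of 34797 genes, which does not show that these treatments act alike. For Cyp1b1 it was 0.70 (95% interval 0.24 to 1.17), for Tiparp 0.72 (95% interval -0.05 to 1.50), for Ereg 0.58 (95% interval 0.02 to 1.13) and for Nqo1 0.17 (95% interval -0.40 to 0.74). The intervals are for single genes, not adjusted for the number tested, and the adjusted p in limma was 0.9999 for each. Without rat B 6 genes were called here, and without rat A 0.

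Between PeCDF 2 nM and TCDD 1 nM, 298 genes differed (0.856%), 140 with the higher log2 ratio for PeCDF and 158 with the lower. The scans of these 2 treatments were read in different sessions, TCDD and untreated cells in one and both furans in the other, and session and treatment cannot be told apart here. Cyp1b1 (-1.15 ± 0.21, adjusted p = 0.0422), Ereg (-1.72 ± 0.25, adjusted p = 0.0208) and Pou3f1 (-1.08 ± 0.11, adjusted p = 0.00659) were lower with PeCDF than with TCDD. Sf3b2, a splicing factor subunit, and Map1b, a microtubule protein, were lower too, with -0.51 and -0.17 for PeCDF against 0.33 and 0.69 for TCDD, although other probes of Sf3b2 and Map1b with PeCDF gave 0.04 for the first and 0.02 to 0.14 for the second. Angptl4 (0.97 ± 0.12, adjusted p = 0.0176), F11 (0.95 ± 0.13, adjusted p = 0.0179), Zfp354a (0.96 ± 0.13, adjusted p = 0.018), the phosphatase gene Dusp1 (0.94 ± 0.15, adjusted p = 0.0286) and the cysteine dioxygenase gene Cdo1 (1.24 ± 0.23, adjusted p = 0.0415) had higher log2 ratios with PeCDF, that is, smaller decreases or none. Without rat A 783 genes were called in this comparison, 623 higher and 160 lower, without rat B 18, 13 higher and 5 lower, and with Agilent's own log ratios 7, so neither the number nor the balance of directions was stable.

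Some genes lay farther from 0 with PeCDF 2 nM, in either direction, than with PeCDF 0.02 nM, TCDF 10 nM and TCDD 1 nM. Tfrc had 0.66 with PeCDF 2 nM, 0.49 with PeCDF 0.02 nM, 0.49 with TCDF 10 nM and -0.17 with TCDD 1 nM. Tat had 0.57 with PeCDF 2 nM, 0.21 with PeCDF 0.02 nM, 0.38 with TCDF 10 nM and 0.02 with TCDD 1 nM. Mmp14 had -0.77 with PeCDF 2 nM, -0.25 with PeCDF 0.02 nM, -0.08 with TCDF 10 nM and -0.22 with TCDD 1 nM, and Srpra had -1.12 with PeCDF 2 nM, -0.39 with PeCDF 0.02 nM, -0.35 with TCDF 10 nM and -0.40 with TCDD 1 nM. With PeCDF 2 nM another probe gave 0.17 for Srpra, of the opposite sign, and another gave 0.32 for Tfrc. The 4 genes were picked here after their values were seen, and of their differences from PeCDF 0.02 nM, TCDF 10 nM and TCDD 1 nM only that of Tfrc from TCDD 1 nM was called (adjusted p = 0.0248 in limma). With TCDF 10 nM, Tfrc was itself called against DMSO (adjusted p = 0.0233). Others kept 1 direction at all 3 upper doses: Slc2a5 had -1.42 with PeCDF 2 nM, -0.18 with PeCDF 0.02 nM, -1.41 with TCDF 10 nM and -1.82 with TCDD 1 nM, and Onecut1 had -1.30 with PeCDF 2 nM, -0.06 with PeCDF 0.02 nM, -1.14 with TCDF 10 nM and -1.49 with TCDD 1 nM.

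**Figure D5:**
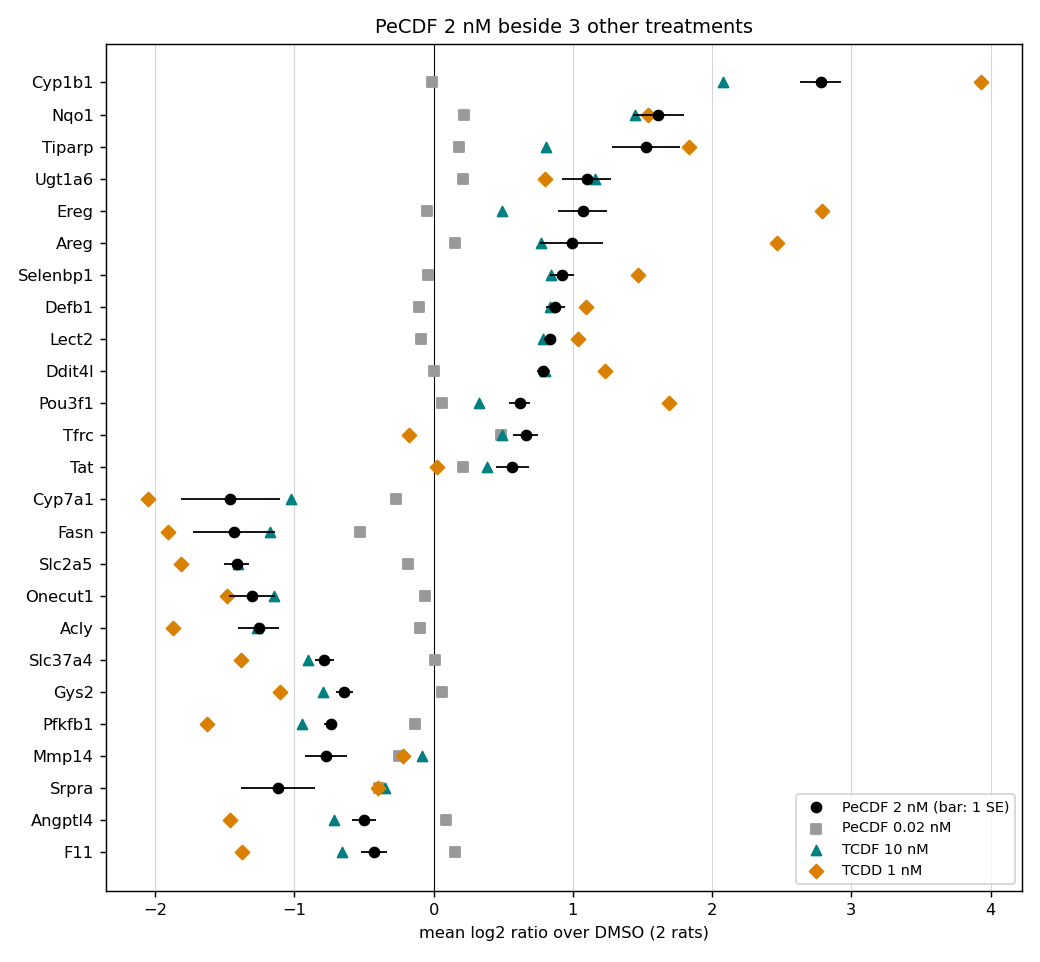
Mean log2 ratio over DMSO (horizontal axis, mean of 2 rats) for 25 named genes with PeCDF 2 nM (black circles, bar of 1 SE), PeCDF 0.02 nM (grey), TCDF 10 nM (teal) and TCDD 1 nM (orange). With PeCDF 0.02 nM most of these genes lie near 0, while Cyp1b1, Ereg and Pou3f1 lie farther out with TCDD 1 nM than with PeCDF 2 nM, and Tfrc, Tat and Mmp14 do not.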

How the data were processed

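RNA was measured on 2-colour Agilent arrays. Per the file headers, the authors' scanner files hold spot and background intensity, read with Agilent Feature Extraction (version 9.1 per the submitters' processing notes, an earlier one in the headers). The deposited log10 ratio is the authors' red over green, and the series table holds it turned to treated over DMSO. From the intensities, log2 ratios were computed with R 4.3.3 and limma 3.58.1: normexp with an offset of 50, loess within arrays with 2256 control spots at weight 0, and 1067 spots marked by the scanner software left out. A probe was kept if its signal was well above background in the test channel of every array of a group, or in the DMSO channel of at least 14 of the 28 arrays, and the brightest probe stood for a gene (37824 of 41012 probes, 34815 genes). The 2 orientations of a rat were averaged, and the 14 values of 7 groups were fitted together with empirical Bayes (degrees of freedom: 3.21 prior, 7 residual). Calls are adjusted p under 0.05 (Benjamini-Hochberg, over every gene tested). Scans were grouped here into 2 sessions by the extraction dates in the headers, with a new session after a wide gap between days. Each session held 2 days, with 1 dye orientation a day. The number of arrays limits the precision.

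Symbols came from the supplied RefSeq table (18513 probes matched), which also gave the promoter windows. Named genes were the 25 largest changes each way with 1 sign on all arrays, all AHR genes, up to 5 genes of each list by p, and the 5 largest differences each way; list members named beyond these were taken from the called ones, and a few genes that the rule names are not reported here. The members and lists were chosen with earlier results of these data known. Both rats contribute to every group by the labels, so the animal pairs the groups; deviations from group means correlated between -0.39 and 0.56 over pairs of groups. The fit was tested on simulated data.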

Additional observations from a re-analysis of the deposited data

Results flagged for a closer look

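Listed here are differences between treatments that passed a test of the difference itself; no explanation of them was tested. Between the 2 doses of PeCDF, 2 nM minus 0.02 nM, 29 genes differed. The log2 difference was 2.79 for Cyp1b1, at least 1.51 for Cyp1a2 (saturated on 3 of 4 arrays at 2 nM), 0.98 for Defb1, 0.97 for Selenbp1 and 0.93 for Lect2. It was -1.23 for Slc2a5, -0.97 for Emp1, -0.79 for Slc37a4, -0.75 for Zap70 and -0.70 for Gys2. With Agilent's own log ratios 7 genes were called higher and 0 lower between the doses. Another probe of Emp1 gave -0.02 with PeCDF 2 nM against DMSO.

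Between PeCDF 2 nM and TCDD 1 nM, which were read in different sessions, 298 genes differed, and with Agilent's own log ratios 7. PeCDF minus TCDD was -1.72 for Ereg, -1.15 for Cyp1b1, -1.08 for Pou3f1, -0.86 for Map1b and -0.85 for Sf3b2. It was 1.24 for Cdo1, 0.97 for Angptl4, 0.96 for Zfp354a, 0.95 for F11 and 0.94 for Dusp1. Groups of 2 rats are too small to look for single outlying samples.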

How the results depend on the processing

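The number of called genes depended on the normalization and on how the spread was estimated; the cause was not tested. Counts follow for PeCDF 2 nM against DMSO (1549), minus PeCDF 0.02 nM (29), minus TCDF 10 nM (0) and minus TCDD 1 nM (298), in that order. Agilent's own log ratios and the deposited series table each gave 738, 7, 0 and 7. Leaving out 1 rat gave 138 to 661, 0 to 57, 0 to 6 and 18 to 783. With session and animal as a replicate block the counts were 2655, 117, 0 and 1247, and with the animal alone as a replicate block 1883, 52, 0 and 430. Single arrays with a dye term gave 4563, 580, 24 and 3960. Without background correction they were 1414, 17, 0 and 184. The arrays of the compared groups alone gave 3, 1, 0 and 0, since few degrees of freedom were left. The furan groups of 1 session alone gave 1064, 13 and 0, and the comparison with TCDD could not be made there. Of the alternatives added after seeing the data, the reading day as a block gave 4435, 534, 16 and 3762, and arrays with the PeCDF RNA in red alone 1250, 17, 0 and 110, against 2138, 24, 0 and 321 for those with it in green alone. Between these orientations the bright acute phase and hepatocyte marker lists turned from mostly lower to mostly higher calls; the cause was not tested. For PeCDF minus TCDD the split was 2317 higher and 1643 lower with a dye term and 62 and 122 without background correction. Counts under the other filters and probe choices stayed within 1.5 times. No named gene called against DMSO changed sign under any setting run, whereas 11 of the 83 not called did, among them Ahr and Dusp1 without rat A and Gsta2 and Hsp90aa1 without rat B. When every probe was tested on its own, only a gene's main probe entered this comparison, so it does not cover disagreement between probes. Another probe gave 0.17 against -1.12 for Srpra and 0.04 against -0.51 for Sf3b2. With Agilent's own log ratios the log2 ratios of Ereg, Pou3f1, Il1r1, Fam13a and Slc7a11 were over 1.5 times larger. The blocked fit changed the call of 15 named genes, 13 of which were then called.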
